A study of Mus musculus with 8 samples.

Results

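Crisp3, Wfdc17 and Tgfb3 encode 3 secreted proteins and were described here on all 8 arrays of the series. They were chosen by their measured values, as genes that stood high in YFP control B cells against naive control cells and low in LMP1 cells. Each has 1 probe set that the platform's table gives a single gene symbol, so the 3 genes are 3 of 21515 genes measured. The differences of LMP1 from YFP control and of YFP control from naive control therefore describe the choice and are given with no test. A working name for the 3 genes was that culture raises them, which was not tested. In CD40-activated cells, also cultured, Crisp3 and Tgfb3 overlapped naive levels and Wfdc17 was below them on both arrays. CD40-activated cells differ from YFP control in treatment, strain, sex and sorting, so the part of culture cannot be told apart here.

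Each of 4 groups of B cells from mouse spleen had 2 Affymetrix arrays that probe whole transcripts. LMP1 cells came from female (C57BL6XBALBc) F1 mice of the genotype LMP1flSTOP/YFPflSTOP, and YFP control cells from female F1 mice of the genotype YFPflSTOP/+. CD40-activated and naive control cells came from male B6/J mice. All cells were spleen cells depleted of CD43-bearing cells. LMP1 and YFP control cells were treated with TAT-Cre, a cell-permeable recombinase that removes the stop cassette, and reporter-positive cells were sorted after 2 days. CD40-activated cells were kept with anti-CD40 for 2 days, and naive control cells went straight into RNA preparation. LMP1 is a membrane protein of Epstein-Barr virus that signals without a ligand through adaptors shared with the receptor CD40. The YFP and LMP1 arrays were re-analysed from an earlier set. Replicates are labelled biological, but no label says that each came from its own mouse, so p-values measure only the spread between these arrays.

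CRISP proteins belong to the CAP superfamily of cysteine-rich secreted proteins. Mouse Crisp3 is known from salivary gland and from B lineage cells, where the octamer-binding factor Oct-2, the product of Pou2f2, was reported to drive it. Wfdc17 encodes a small secreted protein with a WAP domain, a fold held by disulphide bonds that many protease inhibitors share, and is best known from activated macrophages and microglia. Tgfb3 encodes a TGF-beta isoform. TGF-beta is secreted in a latent complex, binds the type II receptor Tgfbr2 once released, and signals through the type I receptor Tgfbr1 to Smad2 and Smad3. In mouse B cells TGF-beta is known for restraining proliferation and for directing class switching to IgA.

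On the GRCm38.p6 assembly Crisp3 lies on chromosome 17 from 40221777 to 40242288, Wfdc17 on chromosome 11 from 83704056 to 83706269 and Tgfb3 on chromosome 12 from 86056743 to 86079041. The 250 bases before the RefSeq start site are shown for Crisp3, because an octamer motif bears on its known regulation, and for Wfdc17, which shared its pattern. The Tgfb3 window was not used here. They lie at chr17:40242289-40242538 on the minus strand and at chr11:83703806-83704055 on the plus strand. Capitals mark matches to the octamer core and to the TATA box.
Crisp3: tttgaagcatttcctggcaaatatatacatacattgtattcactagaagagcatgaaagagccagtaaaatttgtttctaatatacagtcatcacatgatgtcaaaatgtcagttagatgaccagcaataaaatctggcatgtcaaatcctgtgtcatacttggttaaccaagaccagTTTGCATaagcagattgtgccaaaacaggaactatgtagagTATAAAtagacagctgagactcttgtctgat
Wfdc17: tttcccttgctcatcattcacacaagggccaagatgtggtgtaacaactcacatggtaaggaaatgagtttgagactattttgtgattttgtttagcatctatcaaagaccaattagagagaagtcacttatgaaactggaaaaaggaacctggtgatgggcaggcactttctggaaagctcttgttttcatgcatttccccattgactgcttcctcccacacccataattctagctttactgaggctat

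In the Crisp3 window the 7 letters of the octamer core ATGCAAA stood on the opposite strand, starting 72 bases before the start site, and the TATA box TATAAA began 31 bases before it. The full octamer ATGCAAAT was not in that window. Of 32851 RefSeq windows of the same length, 4.12% held the core, 1.6% the full octamer and 12.4% TATAAA, counting both strands, and every full octamer contains the core. The Wfdc17 window held none of these 3, and neither window held the PU.1 core GAGGAAGT (2.44% of windows) or the AP-1 site TGANTCA (6.75%). These matches describe letters in the sequence and show no binding.

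Crisp3 measured 3.56 and 4.04 on the LMP1 arrays, 9.49 and 10.54 on the YFP control arrays, 5.30 and 5.75 on the CD40-activated arrays and 5.89 and 5.21 on the naive control arrays (log2 level). Both YFP control arrays stood far above all others, both LMP1 arrays stood below all others, and the CD40-activated and naive arrays overlapped. LMP1 differed from YFP control by -6.22 ± 0.35 (log2 change with the model's standard error, n = 2 arrays per group), a 74.3-fold lower level and the largest decrease of all 21515 genes. YFP control differed from naive control by 4.47 ± 0.35, or 22.1-fold. On the LMP1 arrays Crisp3 was 2.03 and 1.58 log2 below the median gene, and on the YFP control arrays 3.87 and 4.81 log2 above it.

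Wfdc17 measured 5.25 and 5.03 on the LMP1 arrays, 8.80 and 10.61 on the YFP control arrays, 4.97 and 5.12 on the CD40-activated arrays and 6.22 and 6.04 on the naive control arrays (log2 level). The YFP control arrays were again highest, with YFP control 2 above YFP control 1 by 1.81, and the LMP1 and CD40-activated arrays overlapped below the naive ones. LMP1 differed from YFP control by -4.57 ± 0.44 and YFP control from naive control by 3.58 ± 0.44 (log2 change, n = 2 arrays per group). Without YFP control 2 these log2 changes were -3.66 and 2.67, or 12.6-fold lower against 23.7-fold and 6.36-fold higher against 11.9-fold with both arrays. The size of the Wfdc17 differences thus depended on 1 array. Their direction was kept, but the gene was chosen for that direction, so this is no support.

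Tgfb3 measured 5.21 and 4.72 on the LMP1 arrays, 9.52 and 9.20 on the YFP control arrays, 5.82 and 5.77 on the CD40-activated arrays and 5.62 and 5.80 on the naive control arrays (log2 level). Its YFP control arrays lay closest together of the 3 genes, 0.32 log2 apart against 1.05 for Crisp3. The CD40-activated and naive arrays overlapped, and both LMP1 arrays were below them. LMP1 differed from YFP control by -4.40 ± 0.21 and YFP control from naive control by 3.65 ± 0.21 (log2 change), or 21.0-fold lower and 12.6-fold higher. Without YFP control 2 these log2 changes were -4.56 and 3.81, and for Crisp3 they were -5.69 and 3.94.

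**Figure D1:**
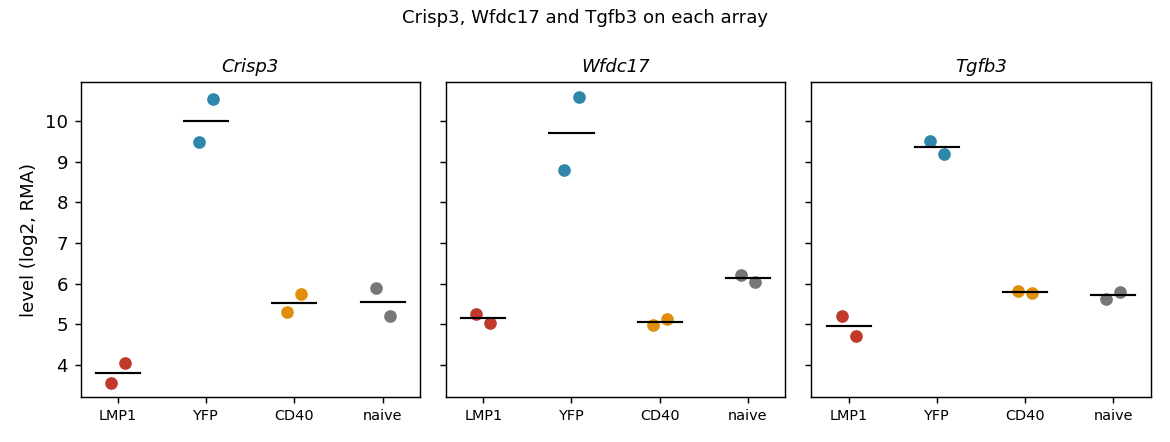
Log2 level of Crisp3, Wfdc17 and Tgfb3 (y axis) on each of the 8 arrays by group (x axis: LMP1, YFP control, CD40-activated, naive control), with points for arrays and bars for group means. The YFP control arrays, at 8.80 to 10.61, lie above every array of the other 3 groups, which reach at most 6.22.

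The CD40-activated arrays took no part in the choice of the genes. None of the 3 passed limma's test over all genes between CD40-activated and naive control cells, a comparison within 1 strain, sex and set of arrays, though the naive arrays did take part in the choice. The log2 change was -0.03 for Crisp3 (95% interval -0.82 to 0.77, adjusted p = 0.975), 0.09 for Tgfb3 (-0.38 to 0.55, adjusted p = 0.825) and -1.09 for Wfdc17 (-2.08 to -0.09, adjusted p = 0.129). For Crisp3 the interval spans 0.566-fold to 1.71-fold, and for Tgfb3 0.768-fold to 1.46-fold, so smaller changes than these could not be seen with 2 arrays per group. Both CD40-activated arrays had less Wfdc17 than both naive ones, and with only these 2 groups in the model that decrease passed (adjusted p = 0.0061). Of all genes tested 11.0% were higher and 6.65% lower in CD40-activated than in naive cells, a split of 62.4% higher among calls that became 73.3% with array medians subtracted.

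Set directly against YFP control, CD40-activated cells had all 3 genes lower, on both arrays. Crisp3 was at -4.49 ± 0.35 (log2 change, adjusted p = 8.59e-05 by limma), Wfdc17 at -4.66 ± 0.44 (adjusted p = 0.000232) and Tgfb3 at -3.57 ± 0.21 (adjusted p = 1.52e-05). In this comparison 7.75% of all genes were higher and 6.06% lower in CD40-activated cells. With any 1 array left out these changes ran from -5.02 to -3.97 for Crisp3, -5.57 to -3.76 for Wfdc17 and -3.73 to -3.41 for Tgfb3. Both groups were cultured for 2 days, but strain, sex, TAT-Cre, sort and set of arrays differ between them and cannot be told apart from the antibody. The YFP control arrays had also served in the choice of the genes, so the p-values of this comparison are no independent support for the decreases.

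LMP1 cells were lower than CD40-activated cells in Crisp3, by -1.73 ± 0.35 (log2 change, adjusted p = 0.00907 by limma), and in Tgfb3, by -0.83 ± 0.21 (adjusted p = 0.0233). The LMP1 arrays had served in the choice of the genes. Wfdc17 was at 0.10 ± 0.44, with a 95% interval of -0.90 to 1.09 (adjusted p = 0.939). Of all genes 9.66% were higher and 5.17% lower in LMP1 than in CD40-activated cells. The Crisp3 call was lost without LMP1 array 1 (-1.49, adjusted p = 0.0951) and without CD40-activated array 2 (-1.50, adjusted p = 0.107). The Tgfb3 call was lost without LMP1 array 2 (-0.59, adjusted p = 0.247), CD40-activated array 1 (-0.81, adjusted p = 0.142) or array 2 (-0.86, adjusted p = 0.129). Strain, sex and set of arrays differ here too.

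**Figure D2:**
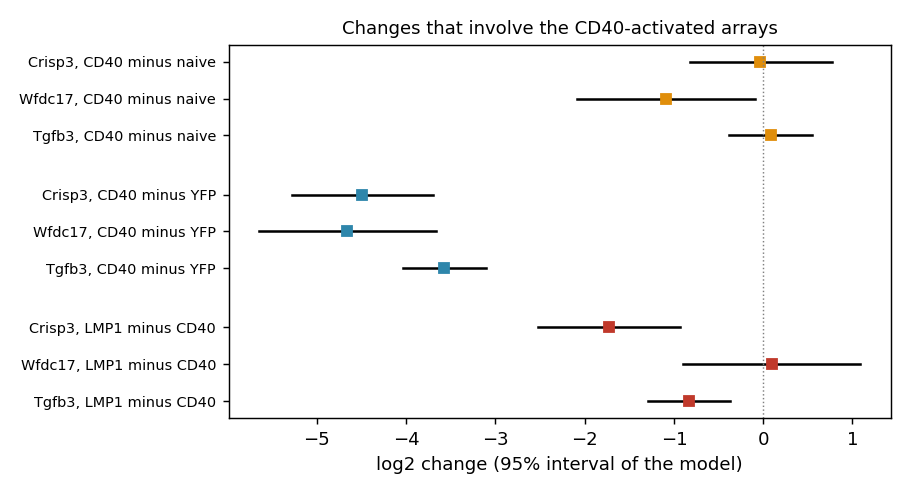
Log2 change (x axis) of Crisp3, Wfdc17 and Tgfb3 in the 3 comparisons that involve the CD40-activated arrays (rows), with squares for the estimate and lines for the 95% interval of the model. CD40-activated minus YFP control lies between -3.57 and -4.66, and CD40-activated minus naive control lies near 0 for Crisp3 and Tgfb3 and at -1.09 for Wfdc17. The YFP control, LMP1 and naive arrays had served in the choice of the genes.

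Some other members of the families of Crisp3 and Wfdc17 passed. Of 12 other CAP superfamily genes, 1 was higher and 1 lower in LMP1 than in YFP control, where 14.9% of all genes were higher and 8.31% lower. The share of higher among all calls of this comparison was 64.2%. It was 53.4% with quantile normalization within each set and 71.3% with array medians subtracted. The list's median log2 change was -0.19 against -0.08 for all genes. The higher one was Glipr2, a membrane-associated CAP protein, with 8.29 and 8.20 on the LMP1 arrays against 6.65 and 6.25 on the YFP control arrays (1.80 ± 0.18, adjusted p = 0.000123 by limma). The lower one, Glipr1l1, was at -0.70 (adjusted p = 0.0283). For Glipr1l1 YFP control also exceeded naive control (0.69, adjusted p = 0.037), and CD40-activated cells were below YFP control (-0.72, adjusted p = 0.0389), at low levels between 3.45 and 4.37 on all arrays. Without YFP control 2 none of these 3 Glipr1l1 differences passed, at -0.67 (adjusted p = 0.0777), 0.67 (adjusted p = 0.086) and -0.69 (adjusted p = 0.0973). Crisp2 was lower than in naive control in CD40-activated cells (-0.72, adjusted p = 0.017 by limma) and in YFP control (-0.60, adjusted p = 0.0379). The second call was not kept without YFP control 2, at -0.50. Crisp1, a close relative of Crisp3, was not analysed here, and whether its transcripts reach the Crisp3 probes was not tested.

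Of 22 other WAP domain genes, 0 were higher and 3 lower in LMP1 than in YFP control, with a median of -0.10. Of all genes 14.9% were higher and 8.31% lower in this comparison. The largest of these decreases was that of Slpi, the secretory leukocyte protease inhibitor, which measured 5.49 and 5.42 on the LMP1 arrays against 6.01 and 7.44 on the YFP control arrays (-1.27 ± 0.37, adjusted p = 0.0338 by limma). Slpi was highest on YFP control 2, the array with the most Wfdc17, and without it stood at -0.56 (adjusted p = 0.113), with none of these 3 genes called and Wfdc3 called higher (0.53, adjusted p = 0.047). Wfdc18 and Wfdc21, which neighbour Wfdc17 on chromosome 11 at 4.95 and 42.9 kb between starts, were at -0.28 and 0.30 in LMP1 against YFP control without passing. On the other side of Wfdc17 lie chemokine genes, of which Ccl3 was higher (1.80, adjusted p = 0.00424) and Ccl6 lower (-1.39, adjusted p = 0.00762) in YFP control than in naive control. Ccl3 (-0.41), Ccl4 (-0.84) and Ccl6 (0.12) did not pass in LMP1 against YFP control.

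The 6 nearest measured genes around Crisp3 were Pgk2, Esp15, Esp38, Esp8, Esp4 and Esp3. Of these Pgk2 was lower in LMP1 than in YFP control (-0.80, adjusted p = 0.00897 by limma), beside 8.31% of all genes. Its means there were low, at 3.08 and 3.88, where array medians ran from 5.59 to 5.75. Of the 6, 0 differed between YFP control and naive control, where 10.9% of all genes were higher and 7.59% lower. Around Tgfb3, Ift43, Gpatch2l, Esrrb, Ttll5 and Flvcr2 passed in neither of these comparisons. Erg28, which acts in sterol synthesis, was higher in YFP control cells than in naive control by 2.48 (adjusted p = 0.000198) and at 0.53 in LMP1 against YFP control without passing.

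Among 13 further secreted protease inhibitors, 0 were higher and 4 lower in LMP1 than in YFP control, beside 14.9% and 8.31% of all genes. In YFP control against naive control 1 was higher and 0 lower, beside 10.9% and 7.59% of all genes. That gene was Cst3, which encodes the cysteine protease inhibitor cystatin C. Cst3 measured 9.87 and 9.54 on the LMP1 arrays, 10.55 and 10.35 on the YFP control arrays, 7.87 and 7.75 on the CD40-activated arrays and 7.87 and 7.96 on the naive control arrays (log2 level). Cst3 was lower in CD40-activated than in YFP control cells (-2.64, adjusted p = 4.19e-05 by limma), as the 3 genes were. In LMP1 cells its log2 change from YFP control was -0.75 ± 0.18 (adjusted p = 0.0128) and from CD40-activated cells 1.90 (adjusted p = 0.000132). The others lower in LMP1 were Serpini1 (-1.02), Serpina3n (-0.72) and Spint2 (-0.69). Serpina3n did not pass without YFP control 2 (-0.65, adjusted p = 0.0728), which left 3 lower.

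The other TGF-beta ligands did not pass where Tgfb3 stood out. Tgfb1 measured 10.01 and 9.94 on the LMP1 arrays, 10.44 and 10.13 on the YFP control arrays, 10.51 and 10.41 on the CD40-activated arrays and 10.28 and 10.04 on the naive control arrays. Tgfb2 measured 5.27 and 5.22 on the LMP1 arrays against 5.08 and 5.45 on the YFP control arrays, with 4.64 and 5.15 on the CD40-activated arrays and 4.49 and 5.01 on the naive ones. Neither passed in any of the 5 comparisons with all arrays. Without YFP control 2 Tgfb1 passed in LMP1 against CD40-activated cells, lower at -0.49 (adjusted p = 0.0436, against 0.109 with all arrays). In LMP1 against YFP control Tgfb1 was at -0.31 (adjusted p = 0.26) and Tgfb2 at -0.02 (adjusted p = 0.967). Of 20 further genes listed under superfamily ligand names 1 was higher and 1 lower in LMP1 than in YFP control, beside 14.9% and 8.31% of all genes. The higher one, Bmp1 (2.02, adjusted p = 0.000117), is no ligand but a protease that carries a BMP name and processes procollagen, so no ligand of that list was called higher. The lower one was Gdf11, an activin-like ligand (-1.77, adjusted p = 0.000371).

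Of the 5 receptor genes 1 was lower and 1 higher in LMP1 than in YFP control, where 8.31% of all genes were lower and 14.9% higher. Tgfbr2, the type II receptor that binds TGF-beta first, was lower in LMP1 cells, with 9.01 and 9.12 on the LMP1 arrays against 10.65 and 9.89 on the YFP control arrays (-1.21 ± 0.24, adjusted p = 0.0049 by limma). It was lower than in CD40-activated cells as well (-1.35, adjusted p = 0.00435). The coreceptor Eng was higher, with 6.95 and 7.07 on the LMP1 arrays against 4.91 and 5.50 on the YFP control arrays (1.81 ± 0.23, adjusted p = 0.000405). Tgfbr1 (-0.43), the coreceptor Tgfbr3 (-0.17) and Acvrl1 (-0.09) did not pass in LMP1 against YFP control. Tgfbr3 was lower than in naive control both in YFP control (-0.96, adjusted p = 0.006) and in CD40-activated cells (-1.02, adjusted p = 0.00415). Eng, Tgfbr2, Tgfbr1 and Acvrl1 did not pass in YFP control against naive control.

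Of 11 genes for latency and activation 2 were higher and 0 lower in LMP1 than in YFP control, beside 14.9% and 8.31% of all genes. They were Lrrc32, which anchors latent TGF-beta to the cell surface (1.14 ± 0.18, adjusted p = 0.00134 by limma), and the convertase Furin, which cleaves the TGF-beta precursor (0.97 ± 0.23, adjusted p = 0.0117). In YFP control against naive control Lrrc32 (0.61) and the integrin subunit Itgav (0.73, adjusted p = 0.0129) were higher, and without YFP control 2 only Itgav of this list was called. Of 11 Smads and Smad inhibitors 1 was higher and 1 lower in LMP1 than in YFP control, near the shares over all genes. Smad7, which blocks the type I receptor, measured 8.74 and 8.82 on the LMP1 arrays against 8.12 and 7.31 on the YFP control arrays (1.07 ± 0.25, adjusted p = 0.0117). Smad3, which carries the signal, measured 6.20 and 5.83 on the LMP1 arrays against 7.16 and 6.54 on the YFP control arrays (-0.84 ± 0.23, adjusted p = 0.0269).

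In CD40-activated cells Smad3 was higher and Smad7 lower than in naive control. Smad3 measured 8.77 and 8.99 on the CD40-activated arrays and 7.24 and 7.45 on the naive arrays (1.54 ± 0.23, adjusted p = 0.00178 by limma), and Smad7 6.80 and 7.07 on the CD40-activated arrays and 8.07 and 7.88 on the naive arrays (-1.04 ± 0.25, adjusted p = 0.0182). Set directly against CD40-activated cells, LMP1 cells had Smad3 at -2.87 (adjusted p = 6.06e-05) and Smad7 at 1.85 (adjusted p = 0.000966).

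Of 14 genes known as TGF-beta targets 5 were higher and 2 lower in LMP1 than in YFP control, beside 14.9% and 8.31% of all genes, with a list median of 0.27 against -0.08 for all genes. The higher ones were the cell cycle inhibitor Cdkn1a (4.03), the inhibitor of basic helix-loop-helix factors Id2 (1.61), Smad7 (1.07), Runx3, a factor in IgA switching (1.02), and Pmepa1, an inhibitor of Smad activation (1.02). Id3 (-0.96) and Ldlrad4 (-0.71) were lower. In YFP control, where Tgfb3 was high, 2 of the 14 were higher and 3 lower than in naive control, beside 10.9% and 7.59% of all genes. Pmepa1 measured 7.35 and 7.89 on the YFP control arrays and 5.75 and 6.20 on the naive control arrays (1.65 ± 0.24, adjusted p = 0.00176), and Id3 was at 0.87 (adjusted p = 0.025). Itgae (-1.10), Id1 (-0.88) and Ldlrad4 (-0.83) were lower. Without YFP control 2 that count was 2 higher and 5 lower.

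**Figure D3:**
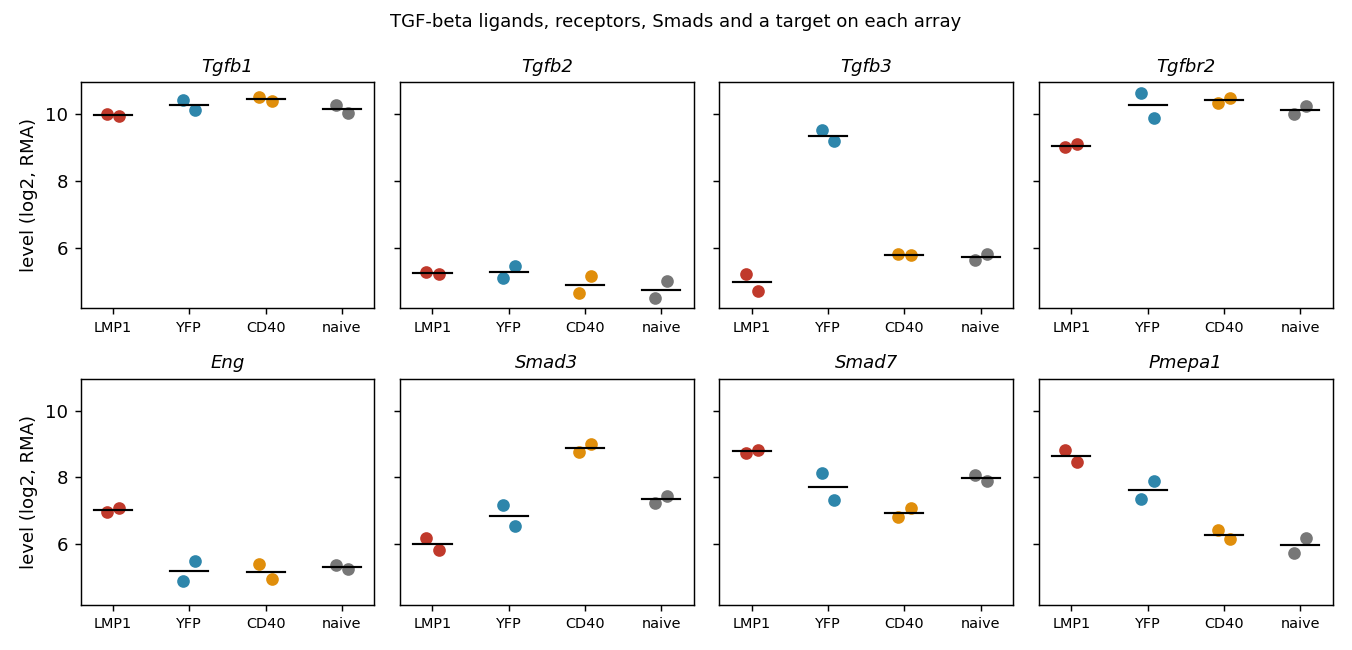
Log2 level (y axis) of 3 TGF-beta ligands, the receptor genes Tgfbr2 and Eng, Smad3, Smad7 and the target Pmepa1 on each array by group (x axis), with points for arrays and bars for group means. Among the ligands Tgfb3 alone stands apart on the YFP control arrays, at 9.52 and 9.20, and Smad3 is highest on the CD40-activated arrays, at 8.77 and 8.99.

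Pou2f2, which encodes Oct-2, measured 7.50 and 7.38 on the LMP1 arrays, 9.14 and 8.55 on the YFP control arrays, 7.77 and 7.63 on the CD40-activated arrays and 8.66 and 8.45 on the naive control arrays (log2 level). It was lower in LMP1 than in YFP control (-1.41 ± 0.21, adjusted p = 0.00103 by limma), lower in CD40-activated than in YFP control (-1.15, adjusted p = 0.00643) and lower in CD40-activated than in naive control (-0.86, adjusted p = 0.0207). Between YFP control and naive control, where Crisp3 differed by 4.47, Pou2f2 was at 0.29 without passing (adjusted p = 0.381). Its coactivator gene Pou2af1 was at -0.07 in LMP1 against YFP control, and higher than in naive control in YFP control (0.74, adjusted p = 0.0137) and in CD40-activated cells (1.06, adjusted p = 0.00212). Cd36, a scavenger receptor gene known as an Oct-2 target in B cells, had another pattern, with 10.73 and 10.74 on the CD40-activated arrays and 9.31 and 8.12 on the naive arrays (2.02 ± 0.34, adjusted p = 0.00285), and 0.70 in LMP1 against YFP control without passing. Pou2f3 passed in none of the 5 comparisons.

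Over the 8 arrays the log2 levels of Crisp3 correlated with those of Tgfb3 at r = 0.97 and with those of Wfdc17 at r = 0.95, and those of Wfdc17 with those of Tgfb3 at r = 0.93. These values follow from the choice of the genes and from the 4 groups, and describe these arrays. Among 2170 genes whose levels spanned at least 2 log2, those most like Crisp3 were AI504432 (r = 0.976), the SUMO protease gene Senp7 (r = 0.968), Olfr166 (r = 0.966), Tgfb3 (r = 0.965) and Mir687 (r = 0.958). Most like Tgfb3 were the calcium channel gene Ryr2 (r = 0.976), AI504432 (r = 0.968), Crisp3, Jhy (r = 0.963) and Adgre1 (r = 0.958). Most like Wfdc17 were P2ry10b (r = 0.991), Adgre1 (r = 0.982), 1300002E11Rik (r = 0.981), Btbd35f1 (r = 0.979) and Trim12c (r = 0.979).

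All genes were also ranked by the smaller of the differences of YFP control from naive control and from LMP1. These differences chose the 3 genes, so their places follow from the choice, also with YFP control 1 alone, and are no support. Crisp3 (4.47), Tgfb3 (3.65) and Wfdc17 (3.58) came first of all genes. The next was the sphingosine phosphate receptor gene S1pr3 (3.35). Then followed Jhy (3.17), Mir101c (2.82), the endosomal RNA sensor Tlr7 (2.81), Gm26504 (2.66), the prostaglandin D synthase gene Hpgds (2.49), Vmn1r94 (2.37), the formyl peptide receptor gene Fpr2 (2.32) and 2 gene models. With YFP control 1 alone Crisp3 (3.94) and Tgfb3 (3.81) stayed first and second, while Wfdc17 (2.67) came after Jhy (3.37) and S1pr3 (3.19) in place 5. Fpr2, at 4.16 on YFP control 1 and 6.43 on YFP control 2, fell to place 131 (1.19), and 10 of the 13 genes were still among the first 13. These 13 genes were not alike in CD40-activated cells. S1pr3, for example, had 9.73 and 9.90 on the CD40-activated arrays against 6.31 and 5.90 on the naive arrays (3.71, adjusted p = 1.65e-05 by limma), Hpgds was at 3.34 (adjusted p = 3.91e-05) and Tlr7 at 2.07 (adjusted p = 0.00279). Jhy (0.17, adjusted p = 0.64) and Fpr2 (0.18, adjusted p = 0.862) did not pass, like Crisp3 and Tgfb3.

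**Figure D4:**
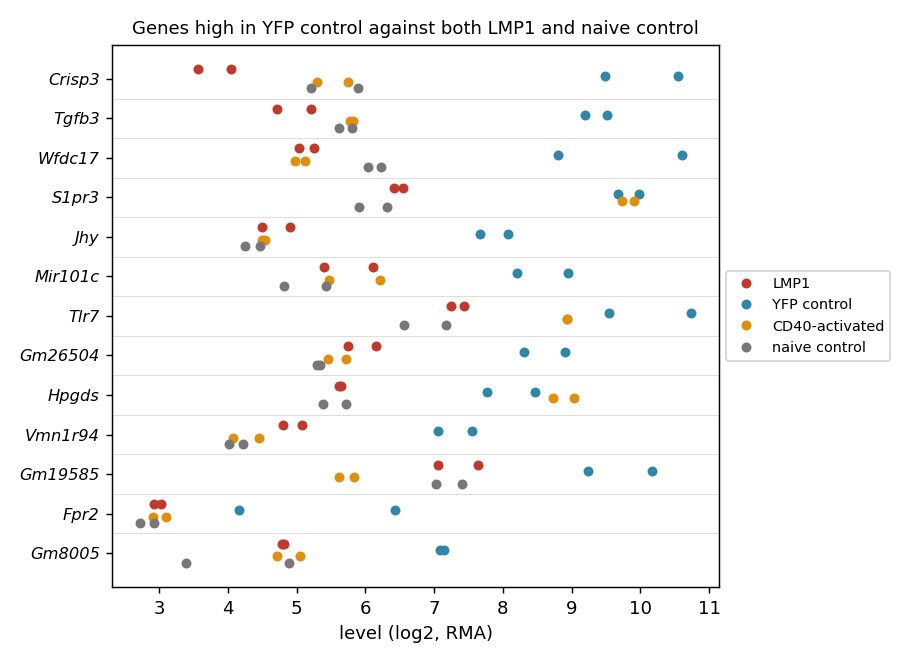
Log2 level (x axis) on each array of the 13 genes that stood highest in YFP control over both LMP1 and naive control (rows), with 1 point per array and 1 line of points per group from LMP1 at the top to naive control at the bottom. S1pr3, Tlr7 and Hpgds are also high on the CD40-activated arrays, where Crisp3, Tgfb3 and Wfdc17 reach at most 5.82.

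Of the B cell markers 9 were measured, and they averaged 10.17 and 10.24 on the LMP1 arrays, 11.66 and 11.28 on the YFP control arrays, 11.11 and 11.07 on the CD40-activated arrays and 11.06 and 11.09 on the naive control arrays. T cell markers averaged between 5.38 and 5.93 on all cultured arrays and 8.40 and 8.12 on the naive arrays. Of these 8 of 8 were lower in YFP control than in naive control, where 7.59% of all genes were lower. The T cell marker Cd3g was lower in LMP1 than in YFP control (-1.13, adjusted p = 0.018 by limma). Its YFP control levels were 5.94 and 6.93, its LMP1 levels 5.33 and 5.28. With all arrays no other T cell marker passed there, and none passed in CD40-activated cells against YFP control. Both results depended on YFP control 2. Without it Cd3g was at -0.64 in LMP1 against YFP control. Cd3d was then at 0.96 in CD40-activated cells against YFP control, beside 0.60 with all arrays. Of 8 NK cell markers 7 were lower in YFP control than in naive control, and of 4 erythroid and platelet markers 2 were, among them the red cell anion exchanger gene Slc4a1 (-4.57, adjusted p = 0.000182 by limma). With all arrays no gene of these 2 lists passed between LMP1 or CD40-activated cells and YFP control, and without YFP control 2 Gzmb, a cytotoxic granule gene, was called higher in LMP1 (1.21, adjusted p = 0.00722). Of 10 neutrophil markers 0 passed in LMP1 against YFP control, and of 7 dendritic cell markers 2 were higher there. Of all genes 14.9% were higher and 8.31% lower in that comparison. All values come from bulk RNA, in which fewer cells of a type and less RNA per cell cannot be told apart. The YFP control arrays differed by more than 1 log2 at 950 genes, against 14 genes for LMP1, 34 for CD40-activated and 364 for naive control.

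Of the markers of plasma cells, which arise from activated B cells and secrete antibody, Jchain and Sdc1 were highest on the YFP control arrays. By group mean Prdm1 and Xbp1 were highest in CD40-activated cells, and Irf4 and Mzb1 in LMP1 cells. The 6 markers averaged 7.56 and 7.64 on the LMP1 arrays, 8.41 and 8.08 on the YFP control arrays, 7.82 and 7.79 on the CD40-activated arrays and 7.57 and 7.52 on the naive control arrays. Jchain, which encodes the chain that joins IgM and IgA into polymers, measured 4.67 and 4.55 on the LMP1 arrays, 8.14 and 8.02 on the YFP control arrays, 4.81 and 4.66 on the CD40-activated arrays and 7.20 and 6.95 on the naive control arrays. It was lower in LMP1 (-3.47, adjusted p = 4.23e-06 by limma) and in CD40-activated cells (-3.35, adjusted p = 9.5e-06) than in YFP control, and YFP control exceeded naive control (1.01, adjusted p = 0.0034). Unlike Crisp3 and Tgfb3, Jchain was lower in CD40-activated than in naive cells (-2.34, adjusted p = 3.91e-05).

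Sdc1, the surface proteoglycan gene that marks plasma cells, measured 5.64 and 5.57 on the LMP1 arrays, 6.95 and 6.07 on the YFP control arrays, 5.64 and 5.60 on the CD40-activated arrays and 5.55 and 5.63 on the naive control arrays. Its changes were -0.91 in LMP1 against YFP control (adjusted p = 0.0263), 0.92 in YFP control against naive control (adjusted p = 0.0316) and -0.89 in CD40-activated cells against YFP control (adjusted p = 0.0436). Xbp1, a factor of the secretory programme, was higher than in naive control both in YFP control (1.28, adjusted p = 0.000932) and in CD40-activated cells, with 9.74 and 9.70 on the CD40-activated arrays against 8.28 and 8.16 on the naive arrays (adjusted p = 0.000323). Prdm1, the factor that drives plasma cell differentiation, did not pass in LMP1 against YFP control (-0.46) or in YFP control against naive control (0.35), and Mzb1 did not either. Prdm1 (0.70, adjusted p = 0.0359 by limma) and Irf4 (0.99, adjusted p = 0.00713) were higher in CD40-activated than in naive cells. Irf4 was also higher in CD40-activated cells than in YFP control (0.70, adjusted p = 0.0424), and at 0.44 there without YFP control 2. Irf4 was higher in LMP1 than in YFP control (0.78, adjusted p = 0.0166), a call lost without YFP control 2 (0.52, adjusted p = 0.0563). Without that array Mzb1 passed in YFP control against naive control (0.87, adjusted p = 0.0218), and Jchain and Sdc1 passed in all 3 comparisons with YFP control. The part of plasma cells or their precursors in the values of the 3 genes was not tested.

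Because Wfdc17 is best known from macrophages, markers of monocytes and macrophages were set beside it. The 13 markers averaged 5.06 and 5.09 on the LMP1 arrays, 5.43 and 5.77 on the YFP control arrays, 5.26 and 5.32 on the CD40-activated arrays and 5.72 and 5.49 on the naive control arrays. Adgre1, an adhesion receptor gene that marks macrophages, measured 5.84 and 5.68 on the LMP1 arrays, 7.53 and 8.03 on the YFP control arrays, 5.56 and 5.83 on the CD40-activated arrays and 5.88 and 5.86 on the naive control arrays. As for Wfdc17, YFP control 2 was highest and YFP control 1 next. It was lower in LMP1 than in YFP control (-2.02, adjusted p = 0.000107 by limma) and higher in YFP control cells than in naive control (1.91, adjusted p = 0.000319). Lyz2 (-1.91, adjusted p = 0.00475) and Spic (-1.01, adjusted p = 0.0136) were also lower in LMP1 than in YFP control. That made 3 of 13 lower, beside 8.31% of all genes. Without YFP control 2 Spic did not pass (-0.80, adjusted p = 0.0794), which left 2. In YFP control against naive control Cd68 was higher as well (1.42), while Lyz2 was at -0.82 without passing. Itgam was lower there (-1.02), a call not kept without YFP control 2, at -1.08. Csf1r, the receptor gene that defines the lineage, was at -0.42 there without passing. It measured 5.09 and 4.82 on the YFP control arrays and 5.72 and 5.03 on the naive ones. Unlike Adgre1, Cd68 was highest on the CD40-activated arrays, at 8.78 and 8.30, and at 0.03 in LMP1 against YFP control without passing. C1qa, C1qb and C1qc did not pass in either comparison. The part of other cells in the Wfdc17 values was not tested.

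**Figure D5:**
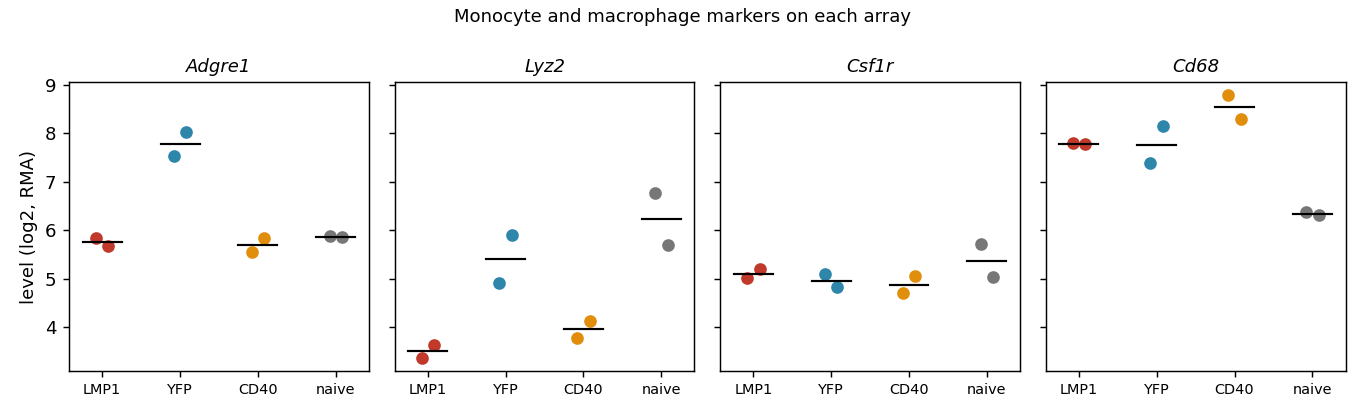
Log2 level (y axis) of the monocyte and macrophage markers Adgre1, Lyz2, Csf1r and Cd68 on each array by group (x axis), with points for arrays and bars for group means. Adgre1 is highest on the YFP control arrays, at 7.53 and 8.03, while Csf1r lies between 4.82 and 5.20 on the YFP control and LMP1 arrays.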

How the data were processed

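The authors' deposited values are on a log2 scale, 1 per probe set and array, and per the submitters' processing notes they were made with RMA and oligo, for which no version is given. The table held 25349 probe sets. Of these 22225 had 1 gene symbol and were used, while 616 had several and 2508 none. Where a gene had several probe sets, as 640 did, the brightest was used, which left 21515 genes. Array medians ran from 5.52 to 5.68 over all probe sets and from 5.59 to 5.75 over the genes used, and the small number of arrays limits the precision. A single limma model (version 3.58.1, R 4.3.3) with a mean for each group was fitted to the 8 arrays by lmFit and eBayes, which left 4 residual and 5.75 prior degrees of freedom. Two-sided p-values were adjusted over all 21515 genes by the Benjamini-Hochberg method and called under 0.05. The procedure was tested on simulated data.

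The 3 genes and the 18 lists with 199 genes were chosen with earlier results of these data known. Named were all genes of the TGF-beta ligand, receptor and Oct lists, up to 4 called genes with the largest and 2 with the smallest change of every other list, the 5 genes most like each of the 3, the 10 next in the shared pattern and 3 measured neighbours on each side. Marker genes were named after their values were seen. Symbols come from the platform's table, and positions and promoter sequences from RefSeq on GRCm38.p6. Other scalings, filters and spread models, the mean of a gene's probe sets, the replicate number as a block and each left-out array were tried as alternatives. Counts over the lists and the ranking of the shared pattern without YFP control 2, whose values stand apart, were added after seeing the data.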

Additional observations from a re-analysis of the deposited data

How the results depend on the processing

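The values of the 3 genes in 5 comparisons were recomputed 216 times, and 207 kept their direction and their side of the threshold or stayed within the spread between arrays. That count includes the 2 comparisons that chose the genes, which have no test here, and others that use the same YFP control arrays. The mean of a gene's probe sets and the replicate block could not move the changes of these genes. The count is therefore partly fixed in advance and is no measure of support. With only the 2 groups compared in the model, Wfdc17 in CD40-activated against naive control cells passed at the same change of -1.09. Over the fits that leave out 1 array it ran from -1.18 to -1, passing without YFP control 1 or 2, a group with no part in that difference other than in the spread. Crisp3 in LMP1 against CD40-activated cells ran from -1.97 to -1.49, Tgfb3 there from -1.08 to -0.59, and Wfdc17 in YFP control against naive control from 2.67 to 4.48.

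With 1 array left out the number of genes called ran from 2647 to 7090 for LMP1 against YFP control, 2695 to 5955 for YFP control against naive control, 1576 to 5631 for CD40-activated against naive control, 1275 to 4735 for LMP1 against CD40-activated and 843 to 5471 for CD40-activated against YFP control, against 4995, 3986, 3803, 3191 and 2970 with all arrays. With only the 2 groups compared it was 1537 for YFP control against naive control, 6360 for LMP1 against CD40-activated and 1667 for CD40-activated against YFP control. The lone array of a group was assumed to vary like the others. With the replicate number as a block the counts were 4923, 3807, 3659, 3036 and 2853 in the same order, and no call of the 3 genes changed. Same-numbered arrays deviated together at r between -0.10 and 0.07, so the number marks no shown pairing.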
